A study of Homo sapiens with 3 samples.

Results

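The regions described here are diffuse stretches of nascent-strand enrichment in which no narrow summit was found. They were chosen by the calls themselves: an EPIC2 region had to hold no MACS2 summit of its own replicate, overlapping summit-less regions of different replicates were joined, and a merged region was kept if at least 2 replicates contributed and no summit of any replicate lay inside. On chromosomes 1 to 22 this left 3176 regions, or 2.3% of the 138362 merged EPIC2 regions there and of 139078 with chromosomes X and Y. They are named recurrent summit-less regions below. Because the rule used region calls and summits of all 3 replicates, numbers, widths, scores and distances are given as a description without a test.

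The data were short nascent strand sequencing (SNS-seq) libraries of HCT116, a widely used established line of human colorectal cancer cells, grown in RPMI and left untreated. All 3 replicates formed 1 group, with no contrast between conditions, and the labels do not say whether they came from separate cultures. Each had 1 list of diffuse EPIC2 regions and 1 list of single-base MACS2 summits in hg19 coordinates. Read numbers are absent from these lists, so sequencing depth is unknown, and the spread between replicates may be technical. Replicate 2 stood apart by its short lists, with 44482 EPIC2 regions and 63077 summits over all chromosomes, against 124492 and 218227 in replicate 1 and 78820 and 162176 in replicate 3.

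DNA replication starts at origins, where a licensed helicase is activated and RNA-primed nascent strands are laid down in both directions. SNS-seq purifies these short strands through the protection that their RNA primer gives against lambda exonuclease, which digests broken parental DNA. In mammalian genomes initiation ranges from sites confined to a short stretch to broad zones in which many positions are used at low frequency. The 2 callers look at these ends of the range. MACS2 tests each position against the local background and reports the highest base of a narrow peak, whereas EPIC2 scans the genome in fixed steps and joins enriched steps across short gaps into a wide region. A region with no summit is thus enrichment called by EPIC2 without a MACS2 summit in it. Only summit positions were used, so a MACS2 peak with its summit outside may still reach into such a region.

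Such regions made up a sizeable share of every EPIC2 list. Without a summit of the same replicate were 22772 of 123901 regions in replicate 1, 19185 of 44289 in replicate 2 and 22295 of 78782 in replicate 3. These are 18.4%, 43.3% and 28.3% of the regions on chromosomes 1 to 22. The smallest list therefore had the highest share of regions without a summit. Merging the summit-less regions over replicates gave 53230 regions, and most of these had only 1 replicate. At least 2 replicates contributed to 8891, or 16.7%, and of those 5715 held a summit of some replicate inside the merged span. The remaining 3176, or 35.7%, held none.

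The 3176 regions contained 2949 EPIC2 regions of replicate 1, 1540 of replicate 2 and 2460 of replicate 3. This was 13.0%, 8.03% and 11% of the summit-less regions of each replicate, a mean of 10.7% ± 2.48 (SD, n = 3). Most recurrent summit-less regions, 1655 or 52.1%, joined replicates 1 and 3. Replicates 1 and 2 gave 767, replicates 2 and 3 gave 430, and all 3 replicates together gave 324, or 10.2%. Replicate 1 took part in 86.5% of them, replicate 3 in 75.9% and replicate 2 in 47.9%. In 2355 regions, or 74.1%, the third replicate had no EPIC2 region at all. In a further 497, or 15.6%, the third replicate did have one, with its summit outside the merged span. Regions were mostly simple, and 2673 were made of 1 EPIC2 region from each of 2 replicates.

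To see how far the number depends on replicates placing regions at the same spot, each replicate's regions and summits were displaced together. Displacement in a circle by 20 fixed fractions of each chromosome gave 1698 recurrent summit-less regions on average, with a range of 1595 to 1853, so that the observed number was 1.87 times as high. Displacement of replicates against each other by only 10 to 50 kb gave 2522, with a range of 2466 to 2586 over 8 displacements, and the ratio fell to 1.26. Most of the number was therefore also reached when replicates were offset by distances beyond the width of a typical region. The same held for each pair of replicates taken alone. The ratio at 10 to 50 kb was 1.32 for replicates 1 and 2 (2100 regions), 1.25 for replicates 1 and 3 (2436 regions) and 1.28 for replicates 2 and 3 (2668 regions). Consensus origins, defined as EPIC2 regions with a summit of their own replicate merged over at least 2 replicates, numbered 41995 on chromosomes 1 to 22. Their ratio was 2.47 along whole chromosomes and 1.53 at 10 to 50 kb.

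A replicate not used for the choice can be read independently of it. Summit-less regions shared by 2 replicates were therefore chosen without the third, and the third was then examined at them. Here summit-less means without a summit of the region's own replicate, so a span could hold a summit of the other choosing replicate. With replicates 1, 2 and 3 held out, 2668 of 3504, 2436 of 4074 and 2100 of 3071 shared spans held no summit of either choosing replicate. An EPIC2 region of the held-out replicate overlapped 83.2% of 3504 such regions when replicate 1 was held out, 39.1% of 4074 for replicate 2 and 77.1% of 3071 for replicate 3. Summit-less regions of 1 replicate that the other did not overlap with any region were reached less often, in 55.7% of 22655, 17.5% of 17083 and 49.5% of 23112 cases. The difference was 25.6 percentage points ± 3.47 (SD, n = 3). It was positive in 3 of 3 held-out replicates, for which the exact 2-sided sign test gives p = 0.25, the smallest possible value with 3. The 3 comparisons share replicates and are not independent, so this p is only a description. Shared regions were also wider, with a mean of 5823 bases against 2885. Compared with the held-out replicate displaced along whole chromosomes, the ratio was 2.44 ± 0.123 (SD, n = 3) for shared and 2.28 ± 0.342 (SD, n = 3) for unshared regions, a difference within the spread between replicates. With displacement by 10 to 25 kb the ratios were 1.11 ± 0.0532 and 1.16 ± 0.0818 (SD, n = 3), so the order turned. It did so in each replicate, at 1.15 against 1.23, 1.05 against 1.07 and 1.13 against 1.19 in replicates 1, 2 and 3.

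Counted by bases, the held-out replicate covered 43.0% ± 20.5 (SD, n = 3) of the shared summit-less sequence and 26.8% ± 14.6 (SD, n = 3) of the unshared. The value was higher for shared regions in each replicate, by 19.3, 9.22 and 20.1 percentage points in replicates 1, 2 and 3. Against the held-out replicate displaced along whole chromosomes, the ratio of covered bases was 3.15 ± 0.315 for shared regions. For unshared regions it was 2.54 ± 0.483 (SD, n = 3), lower in each replicate. At 10 to 25 kb the ratios were 1.25 ± 0.0931 and 1.27 ± 0.112 (SD, n = 3), a difference within the spread between replicates. Shared regions were higher there in replicates 1 and 2, at 1.34 against 1.32 and 1.16 against 1.14. In replicate 3 they were lower, at 1.25 against 1.34. Regions with summits that were shared by the same 2 replicates had 48.8% ± 19.4 (SD, n = 3) of their bases covered. Their ratio at 10 to 25 kb was 1.36 ± 0.0729 (SD, n = 3) and above that of shared summit-less regions in each replicate. The number of summits differed between these classes as well. The held-out replicate placed 1.80, 0.445 and 1.24 summits per 10 kb in shared summit-less regions, in the order of replicates 1, 2 and 3. In regions shared with summits it placed 2.52, 0.768 and 1.49 per 10 kb, which was higher in each of the 3 replicates. Unshared summit-less regions had 1.74, 0.387 and 1.27 per 10 kb, close to the shared ones. Spans shared by regions of 2 replicates that each lacked an own summit thus had fewer summits in the third than spans shared with summits. Some of these shared summit-less spans held a summit of the other choosing replicate. They still had more than the whole span of chromosomes 1 to 22, where the level was 0.748, 0.216 and 0.560 per 10 kb. Among shared summit-less regions that the held-out replicate overlapped, 12.1%, 48.7% and 25.4% met only regions without a summit there, against 3.49%, 37.4% and 22.5% among regions shared with summits. Unshared summit-less regions had higher values than the shared, at 19.8%, 57.6% and 32.0%. Of all EPIC2 regions, 18.4%, 43.3% and 28.3% had no summit, above the shared values in replicates 1 and 3 and below in replicate 2. Those shares count single EPIC2 regions, whereas a merged span counted here only if it met no region with a summit. A wide span can meet more regions, and shared spans averaged 5823 bases against 2885 for unshared ones. The shares therefore cannot show whether the lack of a summit recurs more often than in the whole list.

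Recurrent summit-less regions were not narrow. Their median width was 4200 bases, the middle 90% ran from 2000 to 8000 bases, and together they covered 14.4 Mb. Consensus origins had a median of 4000 bases but a longer upper tail, with a 95th percentile of 13400 bases. Recurrent regions with a summit inside the merged span had a median of 6000 bases, and summit-less regions of 1 replicate without any summit had 2400. A merged region is wider than its parts, so the EPIC2 regions were also compared within each replicate. The median width of those inside recurrent summit-less regions was 2200, 3200 and 3600 bases in replicates 1, 2 and 3. EPIC2 regions that held a summit had medians of 1600, 2400 and 3200 bases. In every replicate, regions without a summit were thus wider than regions with one, although a wide region offers more room for a summit.

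**Figure D1:**
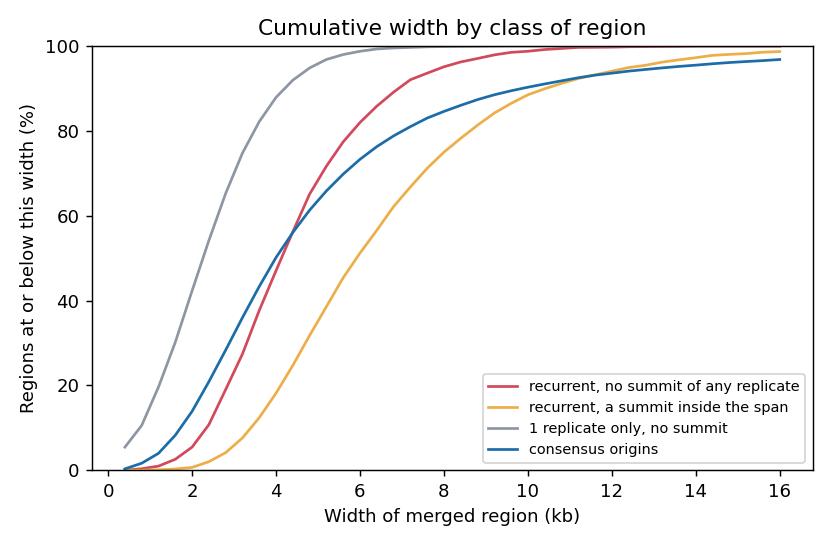
Cumulative width of merged regions in kb for 4 classes: recurrent summit-less regions (3176), recurrent regions with a summit inside the merged span (5715), summit-less regions of 1 replicate (18131) and consensus origins (41995). The curve of recurrent summit-less regions rises steeply around its median of 4200 bases and crosses that of consensus origins, of which 84.6% are at most 8 kb wide against 95.1%.

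The lack of a summit varied with width. In replicate 2, 9.96% of regions up to 1000 bases had no summit, 23.3% of those up to 2000 bases, 52.6% of those up to 4000 bases, 59.5% of those up to 8000 bases and 34.9% of wider ones. In replicate 1 the shares were 11.4%, 20.4%, 25.2%, 14.9% and 2.97% for the same classes, and in replicate 3 they were 6%, 16%, 31.4%, 35.2% and 18.6%. The peak lay at 2000 to 4000 bases in replicate 1 and at 4000 to 8000 bases in the others. The share that ended up inside recurrent summit-less regions was highest at 2000 to 4000 and 4000 to 8000 bases, at 3.88% and 2.71% in replicate 1, 4.49% and 3.84% in replicate 2 and 3.71% and 3.82% in replicate 3. Very wide regions without a summit were rare. Only 5, 9 and 42 EPIC2 regions over 8000 bases lay inside recurrent summit-less regions in replicates 1, 2 and 3.

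Scores of these regions were low for their replicate. The EPIC2 score was used only as a percentile among all regions of the replicate, since its scale was not given. Inside recurrent summit-less regions the median percentile was 37.3, 35.3 and 40.0 in replicates 1, 2 and 3, on average 37.5 ± 2.38 (SD, n = 3). Regions with a summit had medians of 55.0, 62.4 and 54.3, so the 2 sets were on opposite sides of the middle in every replicate. All summit-less regions together had 31.1, 36.5 and 40.3, so the recurrent set was above them in replicate 1 and slightly below them in replicates 2 and 3. Summit-less regions of 1 replicate without any summit were lower, at 23.7, 24.5 and 25.6, and recurrent regions with a summit inside the merged span were higher, at 41.9, 47.1 and 59.9. Among the recurrent summit-less set, 34.9%, 31.8% and 39.1% of EPIC2 regions were above the median of their replicate. The top 10% of scores held few of them, at 1.36%, 0.779% and 1.83%.

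**Figure D2:**
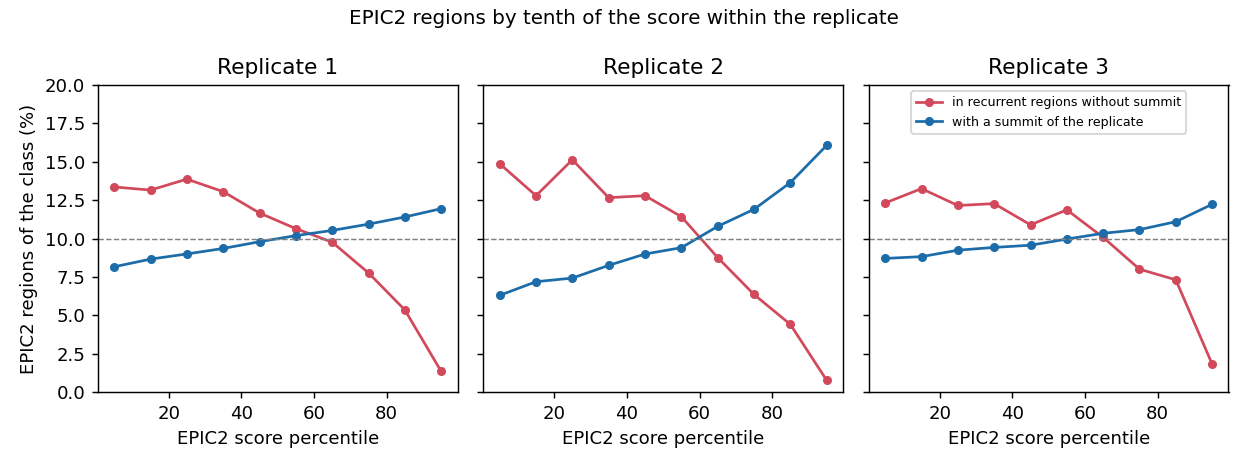
Share of EPIC2 regions, in percent, in each step of 10% of the EPIC2 score within a replicate, for regions inside recurrent summit-less regions and for regions with a summit of the same replicate. The dashed line marks 10%, the share of all EPIC2 regions in each step, and the recurrent summit-less set drops to 1.36%, 0.779% and 1.83% in the highest step.

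EPIC2 scores rise with width, and the recurrent summit-less set was wide, so its score was also ranked within 5 classes of width. The median percentile was then 26.8, 33.5 and 35.0 in replicates 1, 2 and 3, a mean of 31.8 ± 4.38 (SD, n = 3). Regions with a summit had 56.3, 65.4 and 57.2. All summit-less regions had 25.4, 33.4 and 33.1, a mean of 30.6 ± 4.56 (SD, n = 3), which differed from the recurrent set by less than the spread between replicates. The gap to regions with a summit was wider than without the width classes, as the rank of the recurrent summit-less set went down once wide regions were compared with wide regions. The few widest were the lowest within their class, at 5.92, 13.6 and 11.8 in replicates 1, 2 and 3. A low score for the width was thus shared by summit-less regions in general.

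Replicates that both gave a recurrent summit-less region agreed loosely on its extent. The part of the merged span that both had called was 44.4% at the median for replicates 1 and 2, 46.4% for replicates 1 and 3 and 50% for replicates 2 and 3. The Spearman correlation of width was 0.24 for replicates 1 and 2 (1091 regions), 0.27 for replicates 1 and 3 (1979 regions) and 0.07 for replicates 2 and 3 (754 regions). For the score percentile it was 0.12, 0.18 and 0.07 in the same order. These correlations run across regions that share libraries, which are not independent replicates, and are given as a description. Regions in all 3 replicates were the widest, with a median of 6000 bases, and had a mean score percentile of 45.1, against 38.9 for those in 2. Joining regions of more replicates widens the merged span, and EPIC2 scores rise with width, so neither value is independent of the rule.

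Just outside the rule lay 2863 recurrent regions with exactly 1 summit inside the merged span. Their median width was 5200 bases and their mean score percentile 44.1. That summit came from replicate 1 in 1780 cases, from replicate 3 in 782 and from replicate 2 in 301, the order of the summit numbers of the replicates. Its score was ordinary, at a median percentile of 50.6 among the summits of its replicate. On the other side of the rule, the 18131 summit-less regions found in 1 replicate and without any summit had a median width of 2400 bases and a mean score percentile of 28.5. Regions just inside, with 2 replicates and no summit, were between these at 4000 bases and 38.9.

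Although they held no summit, recurrent summit-less regions lay close to summits. The median distance from the edge to the nearest summit of any replicate was 1694.5 bases, the middle 90% ran from 206.75 to 5713.5 bases, and 92.9% were within 5000 bases. Summit-less regions of 1 replicate lay nearly as close, with a median of 1774 bases and 89.2% within 5000 bases. Only 1.13% of recurrent summit-less regions lay more than 10 kb away, against 2.96% of those of 1 replicate. A summit lay within 5000 bases on both sides of 1860 regions, or 58.6%, on 1 side of 1090 and on neither side of 226, or 7.12%. Displaced along the chromosome, 43.1% of the same regions met a summit, and those that did not had a median distance of 4084 bases. This median ran from 2930 to 5734 bases over 20 displacements. Some displaced positions fell in long stretches without summits, as 30.4% lay more than 10 kb away and the 95th percentile was 4727370 bases. Displaced by only 10 to 25 kb, 66.3% met a summit, and the rest had a median distance of 1206 bases. Positions 10 to 25 kb from the regions thus met summits more often than positions elsewhere on the chromosome. The empty span of the regions themselves was set by the rule and is not a result. By replicate the median distance was 2274.5, 7053.5 and 3218.5 bases to summits of replicates 1, 2 and 3, in the order of their numbers.

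**Figure D3:**
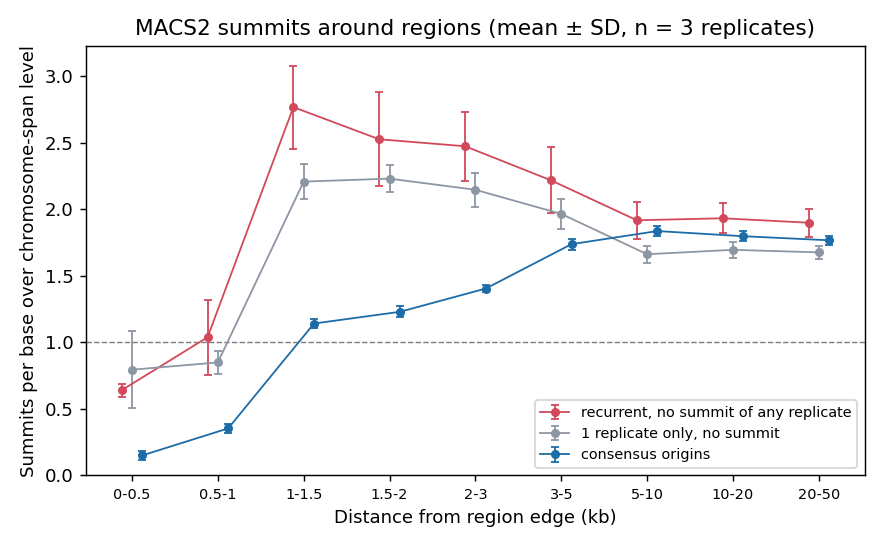
MACS2 summits per base by distance from the region edge in kb, divided by the mean number per base over the span of chromosomes 1 to 22 in the same replicate, as mean ± SD of 3 replicates. Around recurrent summit-less regions the level goes from 0.640 within 500 bases to 2.77 at 1000 to 1500 bases and settles at 1.90 beyond 20 kb, whereas around consensus origins it starts at 0.151.

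The level of summits changed abruptly 1000 bases from the edge. Relative to the mean over the chromosome span, summits were at 0.640 ± 0.0485 (SD, n = 3) within 500 bases and 1.04 ± 0.280 at 500 to 1000 bases. At 1000 to 1500 bases they reached 2.77 ± 0.312 and then declined to 2.22 ± 0.249 at 3000 to 5000 bases and 1.90 ± 0.106 at 20 to 50 kb. The increase at 1000 bases was present in every replicate, from 1.05 to 2.70, from 1.31 to 3.11 and from 0.753 to 2.50 in replicates 1, 2 and 3. Summit-less regions of 1 replicate had the same shape, with 2.21 ± 0.129 at 1000 to 1500 bases. Around consensus origins the level started lower, at 0.151 ± 0.0315 within 500 bases, and also rose at 1000 bases. It went from 0.353 ± 0.0328 at 500 to 1000 bases to 1.14 ± 0.0355 at 1000 to 1500 bases, in every replicate. It then rose further to 1.84 ± 0.0346 at 5 to 10 kb, and was 1.77 ± 0.0350 (SD, n = 3) at 20 to 50 kb. The distance of the step can be read beside the spacing of EPIC2 regions. Within a replicate the smallest gap between neighbouring EPIC2 regions was 800 bases, in all 3 replicates. A summit of the same replicate lay within 800 bases of only 3 of 2949, 5 of 1540 and 1 of 2460 EPIC2 regions of the recurrent summit-less set. Within 1500 bases this was 11%, 4.61% and 11%.

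Many recurrent summit-less regions were neighbours of consensus origins. An overlap was found for 587, or 18.5%, and the median gap was 2000 bases. Within 10 kb of a consensus origin lay 76.2%. No values for other regions or displaced positions stand beside these, so they do not show whether the closeness is particular to the set. Most recurrent summit-less regions lay where EPIC2 regions were dense, which the rule favours because it asks for overlap. When windows of 1 Mb were ordered into 4 equal classes by EPIC2 density, the densest class held 75.8% of recurrent summit-less regions, against 58.3%, 62.3% and 63.6% of the EPIC2 regions of replicates 1, 2 and 3. The sparsest class held 15 of them, or 0.472%, against 4.2%, 3.45% and 2.07% of EPIC2 regions. With replicates displaced by 10 to 50 kb, the densest class held 80.3% and the sparsest 0.173% of the regions that then arose, so the concentration did not depend on exact placement. The observed number was 1.19 times the displaced mean of 2024 in the densest class, 1.46 times in the next and 1.93 times in the one after. In the sparsest class 15 stood against 0 to 7. Recurrent summit-less regions occurred in 1167 of 2714 windows with EPIC2 regions. In 221 windows there were at least 5, and these held 44.4% of the set.

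Chromosomes differed in how often their EPIC2 regions entered the recurrent summit-less set. Density is the share of the set on a chromosome divided by the chromosome's share of the EPIC2 regions of the same replicate, so that 1 means no difference. Chromosome 22 was highest with 1.36 ± 0.235 (SD, n = 3), at 1.51, 1.09 and 1.48 in replicates 1, 2 and 3. Chromosome 19 followed with 1.35 ± 0.234 (SD, n = 3) and chromosome 8 with 1.31 ± 0.191 (SD, n = 3), and these 3 differed by less than the spread between replicates. The lowest was chromosome 21 with 0.457 ± 0.0782 (SD, n = 3), where only 16 regions were found. Chromosome 13 had 0.584 ± 0.159 and 34 regions, and chromosome 4 had 0.603 ± 0.0726 (SD, n = 3) and 71 regions. Chromosomes 8, 10, 17, 19 and 22 were above 1 in every replicate and 11 chromosomes were below 1 in every replicate. Over 22 chromosomes the mean density had an SD of 0.260, and replicates of 1 chromosome had a median SD of 0.106. Per length the contrast was larger, from 0.295 regions per Mb on chromosome 13 to 3.74 on chromosome 19. The rule favours stretches with many EPIC2 regions. In the densest class of windows 3.67% ± 0.442 (SD, n = 3) of EPIC2 regions entered the set, against 0.545% ± 0.373 in the sparsest. No displaced number per chromosome was computed. The densities therefore do not show a trait of a chromosome apart from how closely its EPIC2 regions lie.

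**Figure D4:**
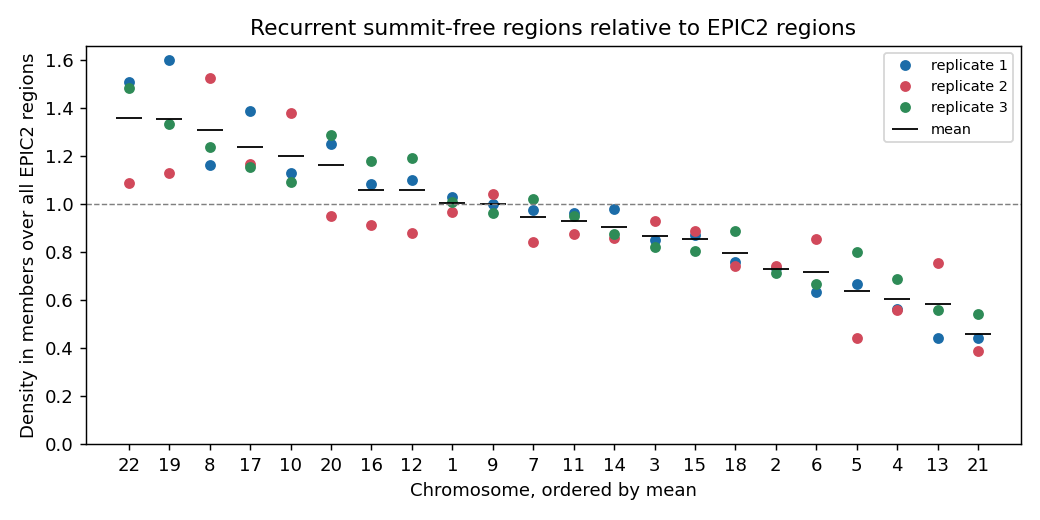
Density of recurrent summit-less regions relative to all EPIC2 regions by chromosome, ordered by the mean, with a point per replicate and a black bar for the mean of 3. Chromosomes 22, 19 and 8 are highest at 1.36, 1.35 and 1.31 and chromosome 21 is lowest at 0.457; on chromosome 8 replicate 2 is above the other replicates and on chromosomes 19 and 22 it is below them.

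Replicate 2 was uneven between chromosomes. Of its EPIC2 regions, 57.9% had no summit of the replicate on chromosome 8, 53.8% on chromosome 10, 53.0% on chromosome 17 and 47.8% on chromosome 16, whereas on each of the other 18 autosomes the share lay between 36.1% and 39.8%. Replicate 3 had 27.3%, 27.0%, 26.7% and 32.3% on chromosomes 8, 10, 17 and 16, within its range over the other autosomes of 23.1% to 35.4%. These 4 chromosomes held 992 of the 3176 recurrent summit-less regions. Without them there were 2184, 2.2 times the number after displacement, and the median width stayed at 4200 bases. The part of replicate 2 in the chromosome densities was not tested otherwise. The 3 windows of 1 Mb with most recurrent summit-less regions were on these chromosomes too. On chromosome 10, from 105000001 to 106000000, 13 were found beside 59 consensus origins. On chromosome 17, from 46000001 to 47000000, there were 13 beside 59 consensus origins. A second window on chromosome 10, from 121000001 to 122000000, had 11 beside 51.

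The 5 recurrent summit-less regions with the highest mean score percentile in all 3 replicates show how the calls lay to each other. Positions are in hg19, and genes at them were not analysed here. The first was on chromosome 19 from 14268001 to 14275200, with score percentiles of 89.3, 92.5 and 71.9 in replicates 1, 2 and 3. Its EPIC2 regions were 2600, 4400 and 6200 bases wide in that order, and the nearest summit, of replicate 2, was 517 bases away. The second was on chromosome 8 from 95538801 to 95548200, with percentiles of 74.5, 85.0 and 91.7. In replicate 1 it was broken into 3 EPIC2 regions of 4000 bases in all, where replicates 2 and 3 each had 1 region, of 6000 and 7200 bases.

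The third was on chromosome 17 from 4798201 to 4807800, with percentiles of 91.2, 74.1 and 83.4 and a nearest summit at 810 bases. The fourth, also on chromosome 17, ran from 47142601 to 47151400 and had percentiles of 94.0, 50.9 and 94.1. Replicates 1 and 3 agreed on it closely, with 8400 and 8800 bases, and replicate 2 covered 6200 of them. The fifth was on chromosome 7 from 73151801 to 73156000, with percentiles of 94.5, 85.7 and 58.5. No summit of replicate 2 lay within 10 kb of it, while replicates 1 and 3 had 3 and 2 there.

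**Figure D5:**
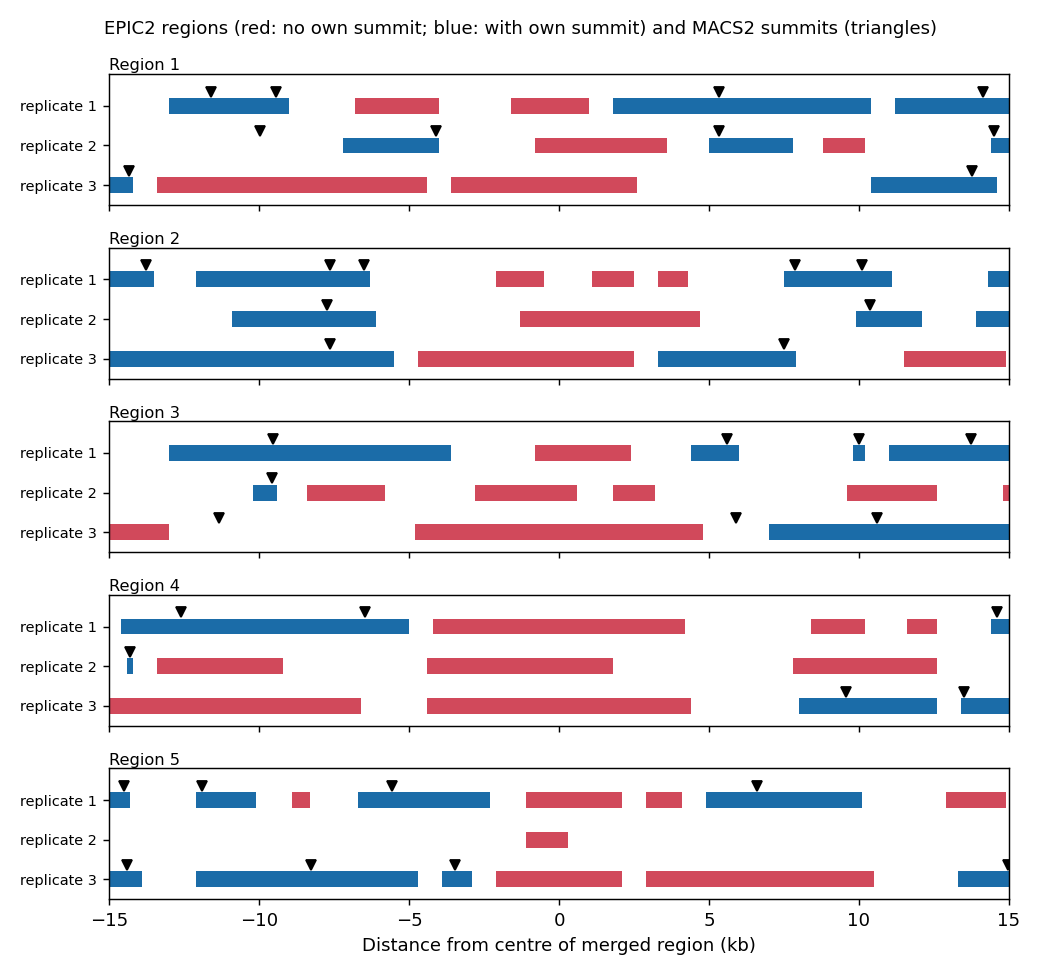
EPIC2 regions of replicates 1, 2 and 3 within 15 kb of the centre of the 5 recurrent summit-less regions with the highest mean score percentile, in the order of the text, by distance in kb. Red bars are EPIC2 regions without a summit of their replicate, blue bars those with one, and triangles are summits, which surround each central region without entering it.

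The 3 widest regions were less alike between replicates. The widest was on chromosome 1 from 224428001 to 224445600, 17600 bases. Replicate 3 covered 16000 of these bases with 3 EPIC2 regions and replicate 1 covered 6800 with 2, while replicate 2 had no summit-less region there. The next, on chromosome 6 from 90536201 to 90550200, was 1 region of 14000 bases in replicate 3, 3 regions of 9200 bases in replicate 1 and 1 region of 4600 bases in replicate 2. On chromosome 10 from 38795201 to 38809000, replicate 3 had 13800 bases at a score percentile of 97.1 and replicate 2 had 3400 bases at 8.81. The width of all 3 came from replicate 3, whose regions were the widest in general.

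The 3 regions farthest from any summit all came from replicates 2 and 3, with none from replicate 1. The farthest was on chromosome 4 from 118122801 to 118127600, with its nearest summit 45546 bases away. It was 3400 bases wide at a score percentile of 29.4 in replicate 2 and 4600 bases wide at 19.9 in replicate 3. On chromosome 11 from 124314001 to 124321200 the nearest summit was at 27120 bases and the percentiles were 16.7 and 40.8. On chromosome 12 from 46961001 to 46964600 it was at 21664 bases, with percentiles of 1.15 and 10.7, close to the bottom of both lists. None of the 3 had a summit of any replicate within 10 kb.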

How the data were processed

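Alignment by the authors used Bowtie2 2.3.4.2 and hg19, followed by removal of duplicates with Picard 2.18.17 (versions from the submitters' processing notes). They ran both callers on each replicate, MACS2 2.1.0.20151222 at q = 0.1 and EPIC2 at FDR = 0.1. No control library is named in the labels or methods read. In the deposited region lists EPIC2 gives each region 1 score, of unstated kind, used only as a rank within a replicate. For summits, the deposited value was taken to be a −log10 q-value because its minimum is 1.00. Duplicate removal and calling thresholds decide which weak regions appear, and unknown depth limits comparison of numbers between replicates.

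EPIC2 coordinates follow a grid of 200 bases, and widths include the last base. Overlap meant at least 1 shared base. Displacements were fixed, 20 fractions of each chromosome or 8 shifts that put replicates 10 to 50 kb apart, keeping a replicate's regions and summits together and dropping regions over a chromosome end. The held-out replicate was shifted by 10 to 25 kb. Score percentiles refer to chromosomes 1 to 22. The rule, regions named and classes were chosen with earlier results of these data known. Named were the 5 highest by mean score percentile in all 3 replicates, the 3 widest, the 3 farthest from a summit, the 3 fullest windows of 1 Mb, and the 3 highest and 3 lowest chromosomes. Chromosomes 10, 16 and 17 were added once their values were known. Alternatives were a reciprocal overlap, stricter summits or scores, a margin around regions, equal numbers per replicate and leaving out replicates. Leaving out chromosomes 8, 10, 16 and 17 was added after seeing the data. The last call on chromosome 1 (249216371) shows that coordinates are not those of the GRCh38 reference at hand, so no genes were named and no sequence was printed. Interval functions were checked on simulated regions. Python 3.11.15, numpy 2.4.6, scipy 1.17.1 and matplotlib 3.10.9 were used.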

Additional observations from a re-analysis of the deposited data

How the results depend on the processing

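The number of recurrent summit-less regions was 2019 with a reciprocal overlap of 50%, 324 with all 3 replicates required, 594 with the upper 50% of EPIC2 scores and 757 with equal numbers per replicate (44289). These settings lower it by construction. Leaving out a replicate gave 2100 (without replicate 3) to 2668 (without replicate 1). The ratio to the displaced number was 2.84, 7.38, 2.32 and 1.62 under these 4 settings in turn, 1.26 with displacement by 10 to 50 kb, and 2.53 to 3.15 on leaving out a replicate. Median width was 3800, 6000, 5600 and 5400 bases under the 4 settings and 4000 to 5600 bases on leaving out a replicate. The median score percentile was 45.3 with all 3 replicates, 68.8 with the upper 50%, 60.6 with equal numbers, and 40.3 to 45.7 on leaving out a replicate. The distance to a summit was 1811 bases with reciprocal overlap, 1834.5 with a q-value of 0.01, 1844 with a margin of 500 bases, 4006.5 from the centre, and 1848.5 to 2716.5 on leaving out a replicate. The SD over chromosomes was 0.444 with all 3 replicates, 0.347 with the upper 50%, 0.379 with equal numbers, 0.876 per length of chromosome, and 0.287 to 0.373 on leaving out a replicate. The difference in held-out share was positive in all 8 alternatives run, from 19.2 to 37.6 percentage points. The difference between shared and unshared regions in the ratio to displaced regions was 0.161 along chromosomes and changed sign to -0.0478 at 10 to 25 kb. Beyond the settings that lower the number by construction, the cause was not tested. No read numbers were at hand to say what depth does to the shorter lists.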

Other observations

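By the same rule, chromosome X gave 1 recurrent summit-less region from 585, 189 and 35 EPIC2 regions in replicates 1, 2 and 3, of which 56, 14 and 12 had no summit of their replicate. A count of 1 is too low to compare with the autosomes.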
